A study of Homo sapiens with 4 samples.

Results

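Among 5103 barcodes with at least 10000 counts, 518 had few counts on both chromosome 7 and chromosome 15. These barcodes, called low nuclei here, were chosen from the data themselves. Peaks of 4 single-nucleus ATAC-seq libraries were merged where they overlapped by at least 1 bp on chromosomes 1 to 22 and X, and 50771 of 128195 merged regions had a peak in every library. A barcode was a low nucleus where its share of counts on chromosome 7 and its share on chromosome 15 were both at or below -0.2 on the log2 scale, against the shares of all pooled Carrier barcodes of that depth. They are compared throughout with the other barcodes of that depth in the same library, called others.

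The nuclei came from Panc1, an established human pancreatic ductal adenocarcinoma line, grown in transplanted mice. The Carrier group (mice 12 and 31) received carrier alone, and the Inflachromene group (mice 11 and 35) received inflachromene, a compound whose known partners are HMGB1 and HMGB2, proteins that bend DNA in chromatin. Each library came from 1 mouse, so each group held 2 libraries. No source used here gives age, dose or time on treatment, and every graft came from 1 cell line, Panc1. Values for the 4 libraries are given below in the order Carrier 12, Carrier 31, Inflachromene 11 and Inflachromene 35 unless named.

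ATAC-seq counts where a transposase cuts open chromatin, so a region yields counts according both to how open it is and to how many copies of it the nucleus holds. Cancer lines such as Panc1 have rearranged chromosome sets that can differ between cells of a culture. DNA copy number was not measured here, so fewer copies of a chromosome and less open chromatin along it cannot be told apart. PDE3A and TPRG1 were given as marker genes of these nuclei. PDE3A encodes a phosphodiesterase that breaks down cyclic AMP, and the role of TPRG1 is poorly known.

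The promoters of 4 genes on which the comparisons below turn are shown first. GCA encodes the calcium-binding protein grancalcin and was the gene with the clearest difference away from altered stretches of chromosome. SGO1 encodes shugoshin, which guards the cohesion of sister centromeres. BHLHE40 and BHLHE41 encode related repressors of the circadian clock, which bind the sequence CACGTG. BHLHE40 was higher and lies on a stretch of chromosome 3 that was higher as a whole. BHLHE41 was lower and lies on a stretch of chromosome 12 that was lower as a whole. Capitals mark CACGTG, which reads the same on both strands. Each sequence runs from 250 bases before to 50 bases after a start listed by RefSeq (GRCh38.p14), 5′ to 3′ on the gene's strand.
GCA, chr2:162343882-162344181, plus strand: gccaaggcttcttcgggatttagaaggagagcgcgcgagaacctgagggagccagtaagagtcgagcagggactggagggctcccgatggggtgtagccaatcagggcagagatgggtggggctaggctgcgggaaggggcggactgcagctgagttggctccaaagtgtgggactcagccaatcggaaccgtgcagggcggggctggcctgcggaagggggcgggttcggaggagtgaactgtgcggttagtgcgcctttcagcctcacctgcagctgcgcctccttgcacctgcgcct
SGO1, chr3:20186157-20186456, minus strand: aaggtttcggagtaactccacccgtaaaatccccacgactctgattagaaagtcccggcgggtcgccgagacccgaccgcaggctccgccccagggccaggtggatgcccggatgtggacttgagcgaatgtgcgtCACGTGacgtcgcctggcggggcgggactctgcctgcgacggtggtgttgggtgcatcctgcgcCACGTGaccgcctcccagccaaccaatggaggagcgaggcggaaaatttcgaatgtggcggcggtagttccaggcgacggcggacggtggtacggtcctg
BHLHE40, chr3:4979187-4979486, plus strand: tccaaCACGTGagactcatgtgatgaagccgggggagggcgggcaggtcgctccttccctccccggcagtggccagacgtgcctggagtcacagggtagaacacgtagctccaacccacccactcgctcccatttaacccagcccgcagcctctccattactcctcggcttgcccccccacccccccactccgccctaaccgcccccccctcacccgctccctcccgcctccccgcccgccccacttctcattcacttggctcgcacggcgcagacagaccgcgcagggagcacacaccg
BHLHE41, chr12:26124988-26125287, minus strand: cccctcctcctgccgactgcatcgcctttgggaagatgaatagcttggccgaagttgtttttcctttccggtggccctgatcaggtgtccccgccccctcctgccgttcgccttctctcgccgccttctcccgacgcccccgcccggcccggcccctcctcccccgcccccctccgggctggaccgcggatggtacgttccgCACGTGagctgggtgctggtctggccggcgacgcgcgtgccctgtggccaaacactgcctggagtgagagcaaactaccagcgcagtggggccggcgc
The SGO1 window holds CACGTG at 2 places, the BHLHE40 and BHLHE41 windows hold it once each, and the GCA window holds none. Of 35116 promoter windows of the same length in the RefSeq table, 2548 (7.26%) hold CACGTG. Among 16 windows that lie wholly inside the regions measured for 15 of the genes named below, 4 hold it. All 4 are on chromosome 3 (SGO1, BHLHE40, SUMF1 and TBC1D5). The 16 were chosen through open regions and hold 51.3% to 78.3% G and C, beside a median of 58.7% over promoter windows. The shares are therefore not alike, and no enrichment was tested. The windows of GCA, SGO1 and BHLHE40 lie wholly inside the regions measured below, whereas the region measured for BHLHE41 lies just upstream of its window. A match is a description of these letters and not a bound site.

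The libraries held 5186, 2039, 4067 and 3276 barcodes and between 27088391 and 39947056 counts. Between 82.5% and 84.9% of matrix entries above 0 were even numbers, so 2 counts were often 1 molecule. All intervals below cover counting error at most. Poisson intervals and limits set at 3 counts treat each count as separate. They are therefore too narrow and too low, by an amount not measured here. Of all barcodes, 1508, 448, 1306 and 64 had a sequence that also occurred in another library. Among barcodes of at least 10000 counts, 1078 of 1678, 426 of 673, 22 of 1094 and 22 of 1658 did, and 8, 3, 6 and 7 shared their sequence with a barcode of that depth elsewhere. Among the low nuclei, 7 of 11, 12 of 20, 1 of 45 and 7 of 442 had a sequence found in any other library, and results without such barcodes stand beside those they change. The library Inflachromene 35 stands apart in most results below.

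Low nuclei made up 11 of 1678 barcodes in Carrier 12 (0.656%, 95% Clopper-Pearson interval 0.328% to 1.17%). They made up 20 of 673 in Carrier 31 (2.97%, 1.82% to 4.55%) and 45 of 1094 in Inflachromene 11 (4.11%, 3.02% to 5.47%). In Inflachromene 35 they made up 442 of 1658 (26.7%, 24.5% to 28.9%), so that 1 mouse supplied most of the low nuclei. Both Inflachromene shares were above both Carrier shares, by 13.6 percentage points on average. The two-sided exact permutation test gave p = 0.333, the smallest that 2 against 2 libraries allow. Without Inflachromene 35 the difference was 2.30 points. The limit was set against Carrier barcodes, 1 of the 2 groups compared. With each library's own shares as the reference, low nuclei made up 0.715%, 2.53%, 3.11% and 22.6%, and the difference was 11.2 points. After thinning each barcode to 10000 counts the rule found 12, 21, 43 and 439 barcodes. Median counts of the low nuclei were 15060, 34374, 18694 and 19198, beside 15206, 36100, 18489 and 17668 in the others.

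The 4 libraries reached the same rule in different ways. In Inflachromene 35, 88.4% of barcodes low on chromosome 7 were also low on chromosome 15, beside 10.9% of those not low on chromosome 7. In the other libraries 19.6%, 28.6% and 28.3% of barcodes low on chromosome 7 were also low on chromosome 15, beside 7.09%, 18.2% and 12.1% of those not low on it. Both shares were used by the rule, so these values describe the choice and carry no test. Barcodes low on chromosome 7 alone numbered 45, 50, 114 and 58, and those low on chromosome 15 alone 115, 110, 113 and 126. The chromosome 7 value of low nuclei had medians of -0.37, -0.27, -0.30 and -0.41, and the chromosome 15 value had medians of -0.48, -0.55, -0.40 and -0.48. The nearest members inside the limit stood between -0.21 and -0.20 on the less low of the 2 chromosomes, and the nearest barcodes outside it stood at -0.20. Within 0.05 of the limit lay 3, 8, 16 and 21 members and 8, 22, 15 and 14 barcodes outside it.

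**Figure D1:**
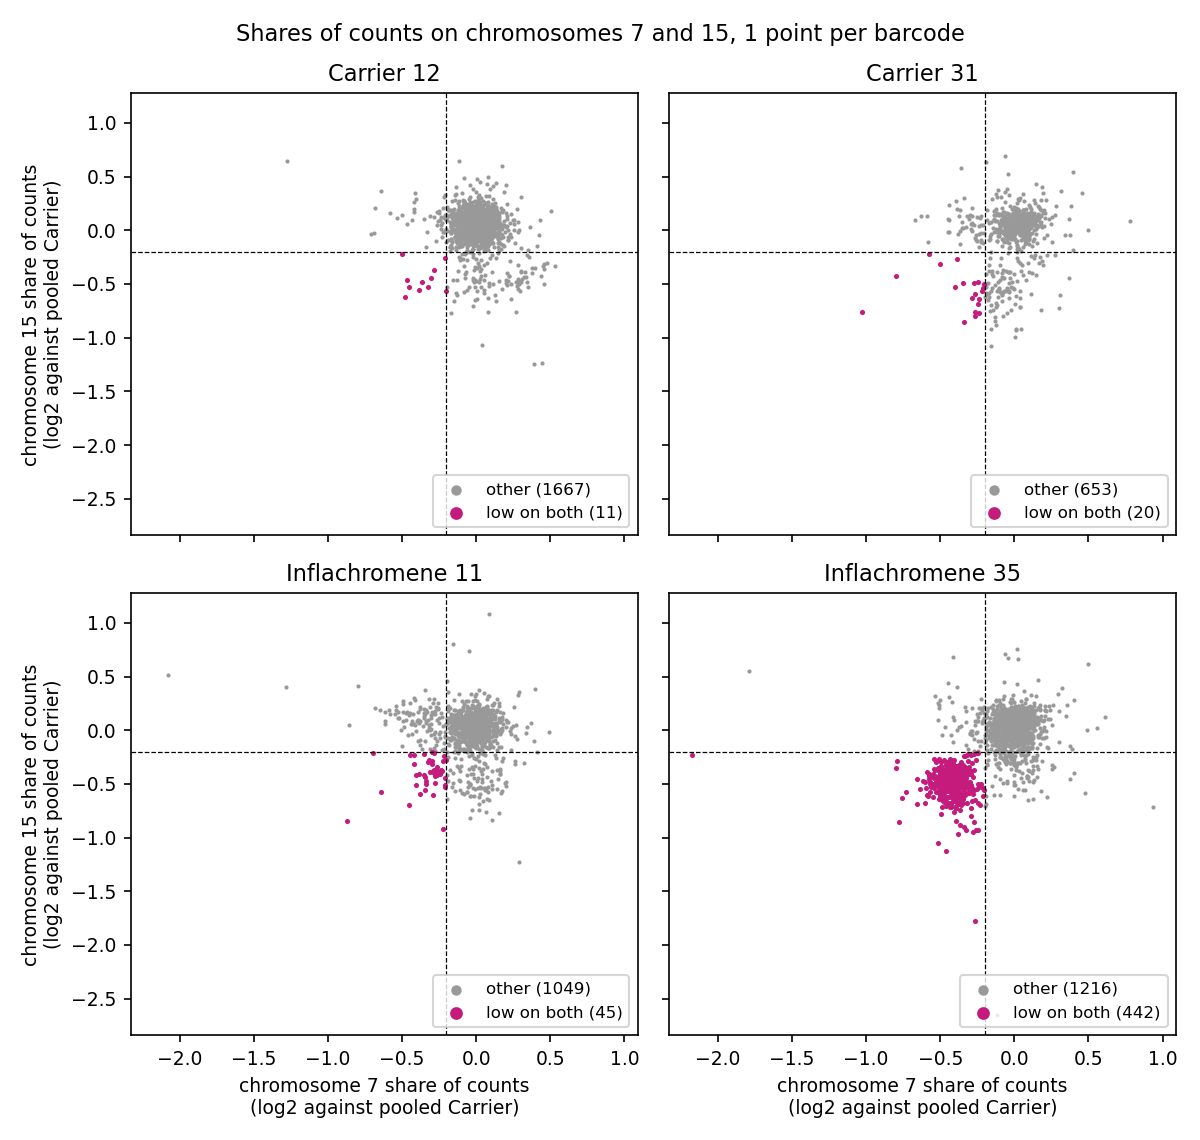
Share of counts on chromosome 7 (x axis) and on chromosome 15 (y axis) as log2 against the pooled Carrier barcodes, 1 point per barcode of at least 10000 counts, with dashed lines at -0.2 and 1 panel per library. The 442 low nuclei of Inflachromene 35 form a cloud of their own below and left of the others, whereas the 11, 20 and 45 of the other libraries lie where the fringes low on either chromosome meet.

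The deficit was also present in peaks that the rule had not used, those outside the 50771 consensus regions. There chromosome 7 held 4.65%, 4.80%, 4.38% and 3.98% of counts in the low nuclei, beside 6.10%, 5.82%, 5.50% and 5.38% in the others. The log2 differences were -0.39, -0.28, -0.33 and -0.43, below 0 in 4 of 4 libraries, with a mean of -0.36. Chromosome 15 held 2.42%, 1.91%, 2.17% and 2.07% in the low nuclei beside 3.31%, 2.82%, 2.99% and 3.01% in the others. Those log2 differences were -0.45, -0.56, -0.47 and -0.54, also below 0 in 4 of 4 libraries, with a mean of -0.50. The two-sided exact sign-flip test gave p = 0.125 for each chromosome, the smallest that 4 pairs allow. In the low nuclei of Carrier 12 these values rest on 916 and 476 counts. Peaks outside the consensus can be called through the nuclei in which they are high, and the nuclei are those that the rule chose. The shares in these peaks are therefore not an independent check of the deficit.

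Along both chromosomes the deficit was spread rather than local. All 16 windows of 10 Mb on chromosome 7 and all 9 on chromosome 15 with at least 20 consensus regions were below 0 in every library. These windows were part of the rule and are given as description. In Inflachromene 11 the part of chromosome 7 before the largest gap between its regions was less low than the part beyond it. The medians per low nucleus there were -0.16 and -0.42. In Inflachromene 35 the same medians were -0.30 and -0.51, in Carrier 12 -0.29 and -0.45 and in Carrier 31 -0.31 and -0.42. In summed counts Carrier 31 did not follow this near the gap, with -0.66 and -0.60 in the windows from 40 to 60 Mb and -0.24 and -0.34 in those from 60 to 80 Mb.

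The low nuclei also differed from the others on stretches of 3 further chromosomes. The share of counts was lower over chromosome 12 from 20 to 40 Mb and chromosome 9 from 10 to 30 Mb in each of the 4 libraries. It was higher over chromosome 3 from 0 to 20 Mb, also in each. Counts were summed over low nuclei and over others of each library, and 272 windows outside chromosomes 7 and 15 were tested in edgeR with the library as a block. After Benjamini-Hochberg adjustment 3 windows were higher (1.1%) and 7 lower (2.57%) at 0.05, together 3.68% of those tested. On chromosome 12 the window from 20 to 30 Mb had a log2 difference of -0.83 (standard error 0.07, edgeR adjusted p = 3.14e-07) and that from 30 to 40 Mb -0.60 (0.08, 2.37e-05). On chromosome 9 the windows from 10 to 20 Mb and from 20 to 30 Mb stood at -0.66 and -0.64, each with an edgeR adjusted p of 1.18e-05. On chromosome 3 the windows from 0 to 10 Mb and from 10 to 20 Mb stood at 0.54 (edgeR adjusted p = 1.76e-05) and 0.46 (9.31e-05).

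The values by library show how even this was. The chromosome 12 window from 20 to 30 Mb stood at -1.03, -0.85, -0.60 and -0.90. The chromosome 9 window from 10 to 20 Mb stood at -1.06, -0.72, -0.50 and -0.49, and the chromosome 3 window from 0 to 10 Mb at 0.65, 0.56, 0.51 and 0.42. Each of these 6 windows passed under every alternative that used all others, leaving out each library included, with 2 exceptions. The chromosome 12 window from 30 to 40 Mb did not pass without Carrier 12 (-0.62, edgeR adjusted p = 0.0579). Removing barcodes with shared sequences left 2 libraries with at least 10 low nuclei and no window past the threshold. The chromosome 12 window from 20 to 30 Mb then stood at -0.77. The remaining calls were smaller. They were chromosome 1 from 180 to 190 Mb (-0.32), chromosome 5 from 180 to 190 Mb (-0.26), chromosome 18 from 0 to 10 Mb (-0.27) and chromosome 11 from 0 to 10 Mb (0.33). The last stood at -0.02 in Inflachromene 35. The count of windows past the threshold was 5 without Carrier 12 and 29 without Inflachromene 35.

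Single nuclei showed the chromosome 12 pattern almost without exception. The share of counts on chromosome 12 from 20 to 40 Mb was below the Carrier reference in 11 of 11, 20 of 20, 45 of 45 and 441 of 442 low nuclei. Among the others it was below that reference in 44.1%, 57.7%, 77.9% and 40.2%. The chromosome 9 stretch was below the reference in 10 of 11, 18 of 20, 43 of 45 and 439 of 442 low nuclei, beside 33.0%, 54.1%, 68.7% and 61.8% of others. The chromosome 3 stretch was at or above 0.2 in 8 of 11, 17 of 20, 41 of 45 and 433 of 442 low nuclei, beside 201 of 1667, 173 of 653, 407 of 1049 and 561 of 1216 others.

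Most low nuclei belonged to a wider set of barcodes with a low 9p and a high 3p, the short arms of chromosomes 9 and 3. Taking -0.2 or lower on 9p together with 0.2 or higher on 3p, 54.5%, 80.0%, 75.6% and 64.5% of low nuclei met it, beside 6.90%, 15.9%, 26.8% and 30.9% of others. When low nuclei were set against only those others, with chromosomes 3 and 9 left out, none of 240 windows (0%) and none of 10661 gene ends passed the edgeR test, and 1 of 40211 regions did (0.00249%). At an unadjusted p under 0.05 there were 15 windows and 447 gene ends, and DESeq2 was not run on this comparison. The chromosome 12 window from 20 to 30 Mb then stood at -0.46 (edgeR adjusted p = 0.201) in place of -0.83. This comparison was chosen after the data had been seen.

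Whole chromosomes varied more between libraries. Chromosome 11 was higher in low nuclei of the first 3 libraries, by 0.37, 0.17 and 0.23, and lower in Inflachromene 35, by -0.21. Chromosome 18 stood at -0.33, -0.33, -0.13 and 0.03. Across the 272 windows, the log2 differences of Inflachromene 35 had a Pearson correlation of 0.167, 0.189 and 0.267 with those of Carrier 12, Carrier 31 and Inflachromene 11. The other 3 pairs of libraries stood between 0.43 and 0.511. Windows of 1 chromosome are neighbours and are not independent, so these correlations are a description.

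**Figure D2:**
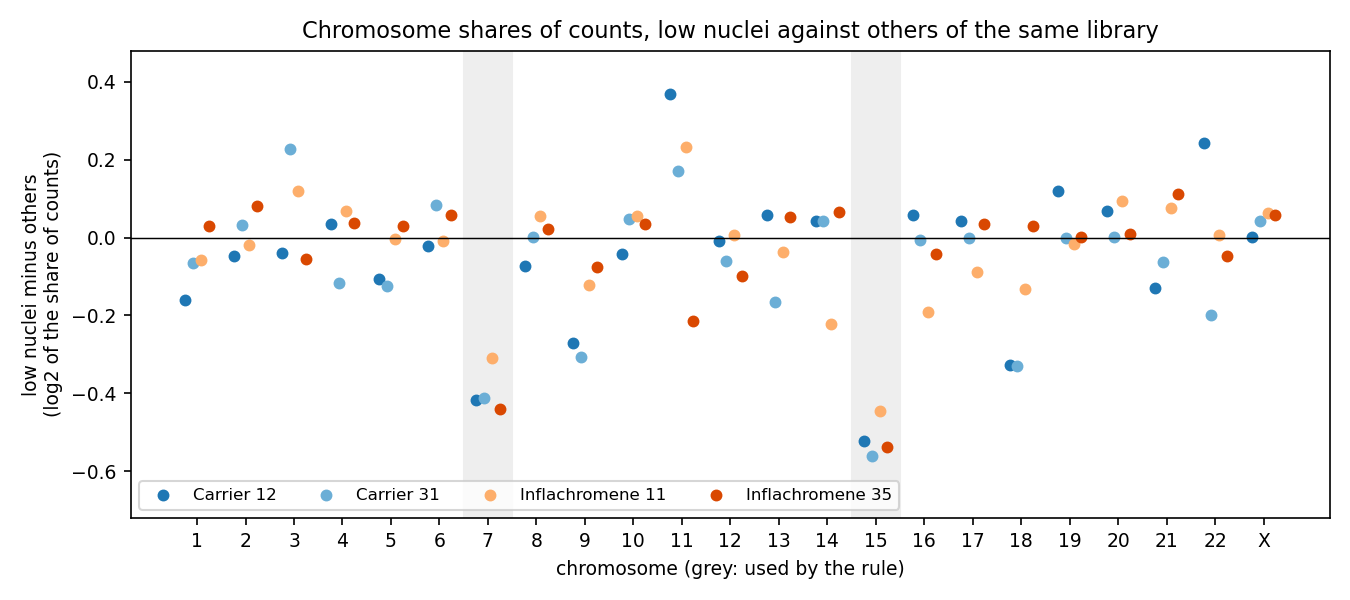
Low nuclei minus others as log2 of each chromosome's share of counts (y axis) for chromosomes 1 to 22 and X (x axis), 1 point per library, with the chromosomes used by the rule in grey. Chromosomes 7 and 15 are low in all 4 libraries by construction, chromosome 9 is low in all 4, and chromosome 11 is above 0 in 3 libraries and at -0.21 in Inflachromene 35.

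The low nuclei were next compared with all barcodes of their library on data without chromosomes 7 and 15. In Inflachromene 35, 95.6% of the 15 nearest barcodes of a low nucleus were low nuclei too, beside 4.35% of those of the others. The same shares were 1.82% against 0.512% in Carrier 12, 12% against 2.55% in Carrier 31 and 9.78% against 4.17% in Inflachromene 11. The difference was above 0 in 4 of 4 libraries, with a mean of 26.9 percentage points and a two-sided exact sign-flip p of 0.125, the smallest possible. Without Inflachromene 35 the mean was 5.45 points.

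Clusters built on the same data placed the low nuclei of Inflachromene 35 together and those of the other libraries elsewhere. Cluster 4 held 426 of its 442 low nuclei (96.4%), and low nuclei were 92.6% of the 460 barcodes of that library in it. The other libraries had 5, 5 and 30 barcodes in cluster 4, of which 0, 0 and 3 were low nuclei. In Inflachromene 11, 37 of 45 low nuclei (82.2%) fell in cluster 3, which held 37.4% of that library's barcodes. Of its 409 barcodes in cluster 3, 282 met the 9p and 3p limits. In Carrier 12, 6 of 11 (54.5%) fell in cluster 3 as well, beside 9.77% of its barcodes. In Carrier 31, 11 of 20 (55%) fell in cluster 6, a cluster mostly of that library, which held 38.5% of its barcodes. Cluster 4 is mostly of 1 library too, so a class of nuclei and a library cannot be told apart there.

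**Figure D3:**
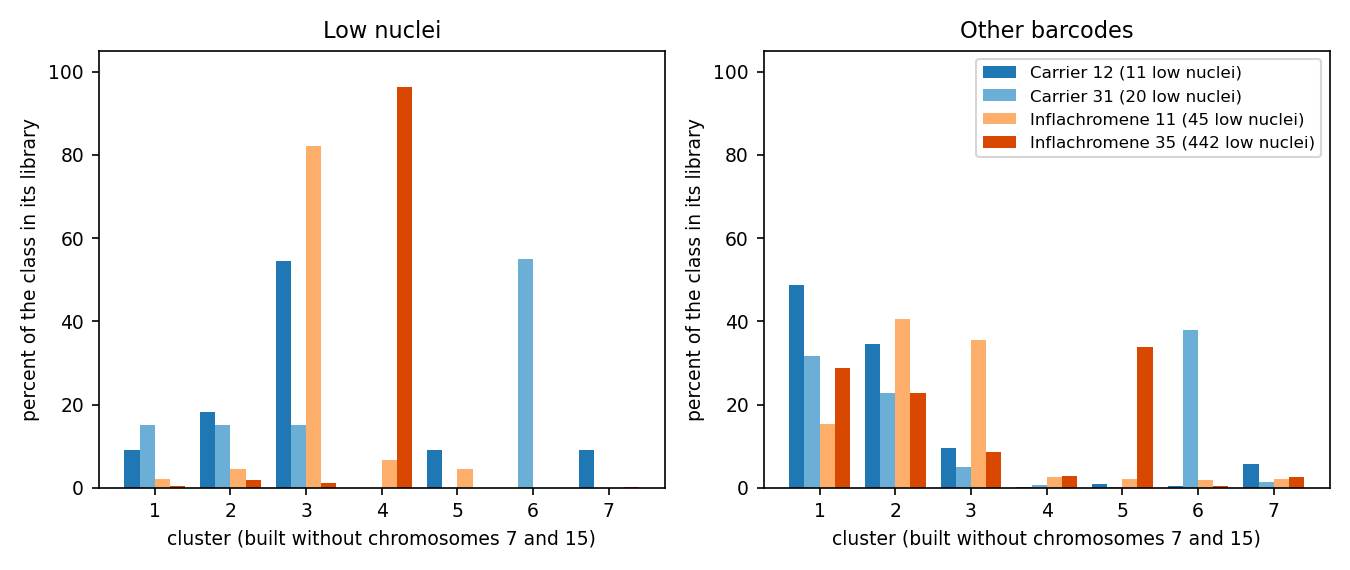
Percent of low nuclei (left) and of other barcodes (right) of each library in each of 7 clusters built without chromosomes 7 and 15. The bar of Inflachromene 35 in cluster 4 reaches 96.4% of its low nuclei, and the low nuclei of the other libraries lie mainly in clusters 3 and 6.

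Marker lists of cell types were summed in low nuclei and in others. A duct carcinoma list had a region at 5 of 6 genes (KRT8, KRT18, KRT19, EPCAM and MUC1). Values are counts per 1000000 of the consensus counts outside chromosomes 7 and 15, written CPM. Summed over that list they were 75.5, 88.9, 99.1 and 111 CPM in low nuclei and 101, 97.6, 96.6 and 104.5 CPM in others. No endothelial, acinar or Schwann cell gene of the lists used had a consensus region at its end. A T and NK cell list had 1 of 6 (CD3E, between 6.24 and 12.7 CPM in low nuclei and between 7.57 and 11.5 in others), and a B cell list had 1 of 4 (PAX5). The fibroblast list had 3 of 7 and stood between 99.1 and 129 CPM in low nuclei and between 117 and 146 in others. The myeloid list had 4 of 6 and stood between 80.3 and 132 CPM in low nuclei and between 86.1 and 95.3 in others. The fibroblast sums stood at or above those of the duct carcinoma list in both classes of every library. These sums therefore do not tell cell types apart and are no check of the labelled cell line. With only PDE3A and TPRG1 as their own markers, the low nuclei are called by their rule.

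At genes, the differences shared by all libraries followed the stretches of chromosomes 3, 9 and 12. Gene ends are consensus regions within 1000 bp of the start of a protein-coding gene, or of either outer end where no strand was available. Of 11950 gene ends outside chromosomes 7 and 15, 8 were higher (0.0669%) and 33 lower (0.276%) in low nuclei by edgeR's quasi-likelihood test with Benjamini-Hochberg adjustment at 0.05. Of these 41 gene ends (0.343%), 38 lay on the 3 stretches. The stretch of chromosome 12 held 19 of the lower ones among 53 gene ends tested there, with a median log2 difference of -0.71. The stretch of chromosome 9 held 13 of 28, with a median of -0.79, and that of chromosome 3 held 6 of the higher ones among 70, with a median of 0.47. Over all gene ends the median was -0.01. With the summed value of its 10 Mb window as an offset, 2 gene ends passed, both higher. DESeq2 called 16 higher and 32 lower. Leaving out 1 library gave 27 calls without Carrier 12, 1 without Carrier 31, 20 without Inflachromene 11 and 17 without Inflachromene 35. With barcodes of shared sequence removed, 2 libraries were left and none passed in edgeR, with 673 at an unadjusted p under 0.05.

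On chromosome 12 the lower genes included BHLHE41, RASSF8, SSPN and PTHLH. BHLHE41, the clock repressor shown above (region chr12:26125932-26126855), had 25.2, 62.4, 61.5 and 44.9 CPM in low nuclei and 179, 162, 132 and 144 CPM in others. Every low value was below every other value. The log2 fold change was -1.52 (standard error 0.18, edgeR adjusted p = 0.00027, n = 4 libraries). With the window offset it was -0.69 and did not pass (edgeR adjusted p = 0.152). RASSF8, a Ras association domain gene (chr12:25958107-25959042), had 107, 74.8, 104 and 87.5 CPM against 235, 254, 202 and 203 CPM, a log2 fold change of -1.26 (0.17). SSPN, which encodes sarcospan of the dystrophin complex, fell by 1.15 on the log2 scale (edgeR adjusted p = 0.00272). Its region (chr12:26122667-26123644) lies close to the BHLHE41 window shown above. The SSPN promoter windows (chr12:26195086-26195385 and chr12:26195323-26195622) lie outside it, so it is not clearly separate from BHLHE41. PTHLH, the gene of parathyroid hormone-related protein, had 50.4, 24.9, 38.9 and 34.3 CPM against 71.0, 79.3, 53.3 and 84.8 CPM. Its log2 fold change was -1.07 (0.20, edgeR adjusted p = 0.0159). LOC124902898, an uncharacterised gene whose region (chr12:24900675-24901569) lies within BCAT1, had a log2 fold change of -2.42 (0.53), with 0 counts in the low nuclei of Carrier 12 and 20 in those of Inflachromene 35.

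On chromosome 9 the lower genes included RPS6, FOCAD, ACER2 and MLLT3. RPS6, which encodes ribosomal protein S6 (chr9:19379828-19380730), had 37.8, 45.2, 41.4 and 42.7 CPM in low nuclei and 111, 111, 104.9 and 84.9 CPM in others. The groups did not overlap, and the 4 values of low nuclei lay close together. The log2 fold change was -1.18 (standard error 0.17, edgeR adjusted p = 0.00198). FOCAD, which encodes focadhesin, fell by 1.18 on the log2 scale. ACER2, an alkaline ceramidase of the Golgi, fell by 1.11, and MLLT3, a chromatin reader of the super elongation complex, fell by 1.08. Each of the 3 had an edgeR adjusted p between 0.00217 and 0.00314.

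On chromosome 3 the higher genes were ITPR1, BHLHE40, EDEM1, SUMF1, SETMAR and TBC1D5. ITPR1, the inositol trisphosphate receptor that releases calcium from the endoplasmic reticulum (chr3:4492858-4493770), had 183, 220, 156 and 134 CPM in low nuclei. In others it had 61.5, 88.9, 91.9 and 88.2 CPM, so the groups did not overlap. Its log2 fold change was 0.97 (standard error 0.15, edgeR adjusted p = 0.00295). BHLHE40, the relative of BHLHE41 (chr3:4978501-4979691), had 264, 376, 242 and 281 CPM against 117, 147, 172 and 189 CPM, a log2 fold change of 0.85 (0.16). EDEM1, which marks misfolded glycoproteins for disposal, rose by 0.75, TBC1D5, a regulator of Rab proteins, by 0.76, SUMF1, which activates sulfatases, by 0.77, and SETMAR, a histone methyltransferase joined to a transposase domain, by 0.71. SGO1 lies just beyond, in the window from 20 to 30 Mb (chr3:20185820-20186728). It had 176, 153, 162 and 142 CPM against 67.8, 83.5, 95.6 and 84.0 CPM, a log2 fold change of 0.87 (0.14, edgeR adjusted p = 0.00379). With the window offset ITPR1, BHLHE40 and SGO1 stood at 0.44, 0.32 and 0.65. None of them passed then (edgeR adjusted p of 0.774, 0.9995 and 0.100). CMTM6, a partner of PD-L1, stood at 0.77 and HDAC11, a histone deacetylase, at 0.64, and neither passed, with edgeR adjusted p of 0.0552 and 0.0650.

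**Figure D4:**
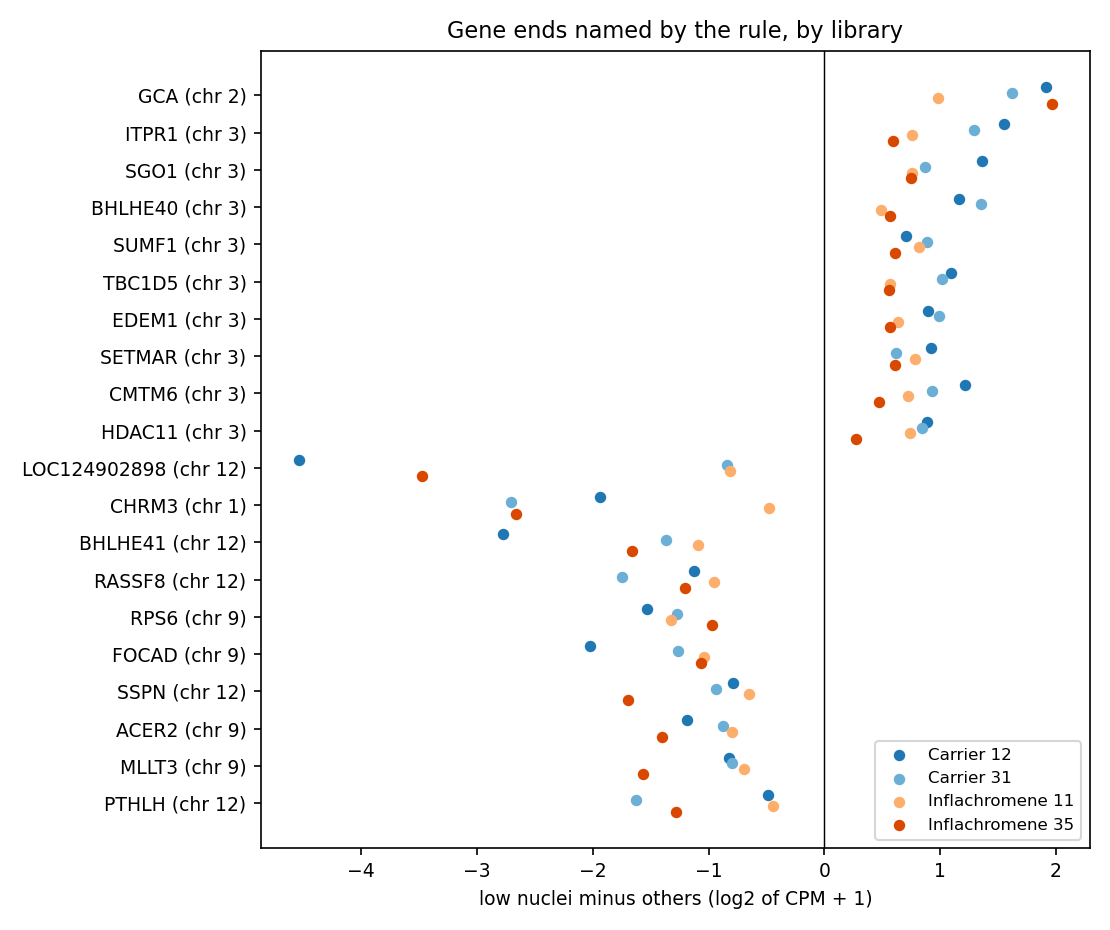
Low nuclei minus others as log2 of CPM plus 1 (x axis) at the 20 gene ends that the naming rule picked (y axis, with chromosome), 1 point per library. The 10 gene ends above lie right of 0 and the 10 below lie left of it in all 4 libraries, which the rule required; GCA and CHRM3 are the members outside chromosomes 3, 9 and 12.

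GCA, on chromosome 2, was the clearest gene whose window did not differ. Its region (chr2:162343676-162344606, at an internal start of the gene) had 37.8, 70.2, 67.7 and 60.3 CPM in low nuclei, from 6, 45, 54 and 485 counts. In others it had 9.30, 22.2, 33.8 and 14.7 CPM, so each low value was above all values of the others. The log2 fold change was 1.64 (standard error 0.24, edgeR adjusted p = 0.00198) and 1.75 with the window offset (edgeR adjusted p = 0.000498). The window itself stood at -0.11. The call did not pass without Carrier 31 (1.66, edgeR adjusted p = 0.0620), without Inflachromene 35 (1.39, 0.0877) or without barcodes of shared sequence (1.58, 0.128). Over all alternatives that used all others, the log2 fold change ranged from 1.39 to 1.89. GCA was also high over cluster 3 as a whole. In Inflachromene 11 its 409 barcodes, of which 37 were low nuclei, held 63.1 CPM, whereas clusters 1 and 2 of that library held 9.21 and 15.6 CPM. Against the others low on 9p and high on 3p its log2 fold change was 0.81 (edgeR adjusted p = 0.744).

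CHRM3, the muscarinic acetylcholine receptor M3 on chromosome 1 (chr1:239386131-239387101), had 6.29, 3.12, 15.1 and 3.48 CPM in low nuclei and 27.0, 25.9, 21.4 and 27.3 CPM in others. The groups did not overlap, but the values of both Carrier libraries lie under what 3 counts give there (18.9 and 4.68 CPM). The log2 fold change was -2.12 (standard error 0.44, edgeR adjusted p = 0.0337). Leaving out Carrier 12, Carrier 31 or Inflachromene 35 took it past 0.05 (edgeR adjusted p of 0.0736, 0.394 and 0.584), and with the window offset it was 0.152.

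The test was also run on consensus regions outside the chromosomes of the rule, whether at gene ends or not. Its calls can therefore include regions already called as gene ends and are not separate evidence for the stretches. The regions named below were chosen away from gene ends. Of 46330 consensus regions tested, 7 were higher (0.0151%) and 43 lower (0.0928%, together 0.108%) by the edgeR test, and 45 of the 50 lay on the 3 stretches. Without Carrier 12 none passed, with 1675 at an unadjusted p under 0.05 and DESeq2 not run on that subset, and without Inflachromene 35 there were 33. A region within the gene MLLT3 (chr9:20558382-20559257) had 0, 12.5, 2.51 and 1.24 CPM in low nuclei against 36.3, 25.1, 18.9 and 24.7 CPM. Outside the stretches, a region nearest to NEK11 (chr3:131361406-131362374) had 81.8, 82.7, 81.5 and 44.5 CPM in low nuclei against 31.8, 34.4, 36.1 and 30.4 CPM. Its log2 fold change was 1.02 (standard error 0.21, edgeR adjusted p = 0.0225). A region within SGIP1, an adaptor of endocytosis (chr1:66563966-66564877), had 0, 3.12, 7.53 and 1.86 CPM against 17.2, 18.2, 16.5 and 30.1 CPM. Its log2 fold change was -2.83 (0.60, edgeR adjusted p = 0.0237). In Carrier 12 a count of 0 allows up to 18.9 CPM, so no difference was detectable there. A region within SLC8A1, the sodium-calcium exchanger, and 1 near BICC1, an RNA-binding protein, stood at 1.65 and 2.20 and did not pass (edgeR adjusted p of 0.150 and 0.0626).

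The 21 gene lists gave few members past the test, against 41 of all 11950 gene ends (0.343%). Calls were BHLHE40 in the TGF-beta and BMP list (1 of 13 measured), PTHLH in the basal-like and squamous list (1 of 6) and SGO1 in the chromosome segregation list (1 of 15), all on or beside the altered stretches. The other 18 lists had none. Over all gene ends 6205 stood below 0 and 5745 above it, with a median of -0.01. Of 15 measured mesenchymal genes 12 stood below 0, with a median of -0.17 and medians by library of -0.38, -0.20, 0.0073 and -0.19. Of 12 YAP and TEAD targets 8 stood below 0, with a median of -0.10 and library medians of -0.13, 0.02, -0.05 and -0.37. The 16 measured hypoxia and glycolysis genes had 11 above 0 and a median of 0.12, with 0.27, 0.34, 0.04 and -0.11 by library. The 14 architectural chromatin proteins had 11 above 0 and a median of 0.06, with 0.04, 0.23, -0.04 and -0.06 by library. The 11 housekeeping controls had 6 above 0 and a median of 0.02. Each of these 5 lists held at least 1 library whose median had the opposite sign. PHLDA3, a p53 target, stood at 0.88 (standard error 0.22, edgeR adjusted p = 0.148) and PHGDH, the first enzyme of serine synthesis, at -0.93 (0.24, 0.163), so neither passed.

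PDE3A, given as a marker, was high in the low nuclei of Inflachromene 35 and thinly measured elsewhere. At its first start (chr12:20367817-20368858) the low nuclei had 0, 5, 8 and 230 counts, or 0, 7.80, 10.0 and 28.6 CPM. The others had 2.89, 4.17, 2.66 and 2.85 CPM. In Carrier 12 a count of 0 allows up to 18.9 CPM (3 counts), so a difference there was not detectable at this depth. The log2 fold change over the 4 libraries was 2.08 (standard error 0.60) and did not pass (edgeR adjusted p = 0.307). In Inflachromene 35 the exact Poisson intervals were 25.01 to 32.5 CPM for low nuclei and 2.16 to 3.70 CPM for others. The gene had 6 more peaks in that library, all outside the consensus. Such peaks can be called through the nuclei in which they are high, so no count is drawn from them. PDE3A lies within the stretch of chromosome 12 that was lower as a whole. By cluster, PDE3A stood at 28.2 CPM in cluster 4 of Inflachromene 35 and between 0.57 and 7.74 CPM in its clusters 1, 2, 3, 5 and 7. In cluster 4 of the other libraries it had 0 counts in 5 barcodes of Carrier 12, 6 counts (44.5 CPM) in 5 barcodes of Carrier 31, none of them low nuclei, and 7 counts (10.7 CPM) in 30 barcodes of Inflachromene 11.

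TPRG1 did not set the low nuclei apart. At its end on chromosome 3 (chr3:189324459-189325441) the low nuclei had 0, 0, 5.02 and 31.9 CPM and the others 3.95, 4.17, 12.9 and 18.8 CPM. The low nuclei were above the others in Inflachromene 35 and below them in Inflachromene 11. In both Carrier libraries they had 0 counts, which allow up to 18.9 and 4.68 CPM, so no difference was detectable there. The log2 fold change was -0.19 (standard error 0.54, edgeR adjusted p = 0.998). In Inflachromene 35, cluster 5, which held no low nucleus, had 30.8 CPM, beside 31.5 CPM in cluster 4. TPRG1 had 4 consensus peaks in that library, none at least 2-fold higher in low nuclei. Its neighbour TP63, a transcription factor of basal epithelium, had 1 consensus peak, with 20.4 counts per 1000000 counts in all peaks of the low nuclei and 6.38 in others.

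Inflachromene 35 was also described on its own, and with 1 library these values carry no test. Of 10865 gene ends with at least 300 counts there, 49 were at least 2-fold higher in low nuclei (0.451%) and 129 at least 2-fold lower (1.19%), on the scale of log2 of CPM plus 1. Consensus regions outside chromosomes 7 and 15 with at least 100 counts there numbered 43764. Of these, 6.10% were at least 2-fold higher and 5.97% at least 2-fold lower. Peaks outside the consensus can be called through the nuclei in which they are high, so they are not counted here. The genes named next are the largest in either direction and were chosen after their values were seen.

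PDE4B, another phosphodiesterase of cyclic AMP, had 3 counts in the low nuclei of Inflachromene 35 (0.373 CPM, exact Poisson interval 0.0769 to 1.09) against 391 in the others (19.6 CPM). All 8 of its consensus peaks were at least 2-fold lower there. In the other libraries its low nuclei had 25.2, 6.24 and 5.02 CPM and the others 9.26, 20.2 and 11.6 CPM, so the direction was not the same in Carrier 12. BCAT1, an aminotransferase of branched-chain amino acids, had 2.61 against 31.03 CPM in Inflachromene 35, and all 5 of its consensus peaks, 1 of which is the region of LOC124902898, were at least 2-fold lower. In the other libraries it had 31.5, 12.5 and 15.05 CPM in low nuclei against 26.1, 29.9 and 22.9 CPM. MAST4, a microtubule-associated kinase, had 1.99 against 27.5 CPM there and was lower in the other libraries as well, with 12.6, 15.6 and 13.8 against 25.7, 22.3 and 18.9 CPM, but did not pass over the 4 libraries (-1.73, edgeR adjusted p = 0.307). HAS2, which makes hyaluronan, had 2.24 against 29.4 CPM there and 0, 32.8 and 15.05 against 21.0, 26.0 and 22.8 CPM elsewhere, so Carrier 31 went the other way. The adhesion gene CADM1 had 3.60 against 24.7 CPM there and 25.2, 17.2 and 10.04 against 18.0, 24.2 and 19.2 CPM elsewhere, so Carrier 12 went the other way. In the low nuclei of Carrier 12, PDE4B, BCAT1, MAST4, HAS2 and CADM1 had 4, 5, 2, 0 and 4 counts. There 3 counts give 18.9 CPM, so directions in that library are weakly measured. CHRM3 and LOC124902898, described above over all 4 libraries, were among this group too.

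Higher in the low nuclei of Inflachromene 35 were GCA, MAP1LC3B2, ST6GALNAC3, COL23A1 and LITAF. MAP1LC3B2, of the LC3 family of autophagy, had 36.9 against 9.46 CPM and was also higher in Inflachromene 11 (27.6 against 11.9). It was higher in Carrier 12 too (12.6 against 7.175 CPM, from 2 counts in low nuclei) and lower in Carrier 31 (7.80 against 10.15 CPM). ST6GALNAC3, a sialyltransferase, had 30.9 against 8.21 CPM and again 20.1 against 6.40 in Inflachromene 11. In Carrier 12 and Carrier 31 its low nuclei had 0 counts, which allow up to 18.9 and 4.68 CPM. The others there had 5.94 and 5.26 CPM, so the direction in the Carrier libraries is weakly measured. COL23A1, a transmembrane collagen, had 37.7 against 10.4 CPM there and 18.9, 9.36 and 11.3 against 17.8, 12.5 and 17.0 CPM elsewhere. LITAF, an endosomal protein, had 98.7 against 33.2 CPM. In the other libraries the low nuclei stood below the others at LITAF, with 12.6, 31.2 and 32.6 against 32.3, 34.8 and 37.2 CPM. The first of these values, in Carrier 12, rests on 2 counts. Among the lists, ICAM1 (32.6 against 13.96 CPM), IFIT3 (25.9 against 11.4) and PHLDA3 (56.9 against 26.4) were at least 2-fold higher in Inflachromene 35. PTHLH and PHGDH (15.3 against 43.8 CPM) were at least 2-fold lower.

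**Figure D5:**
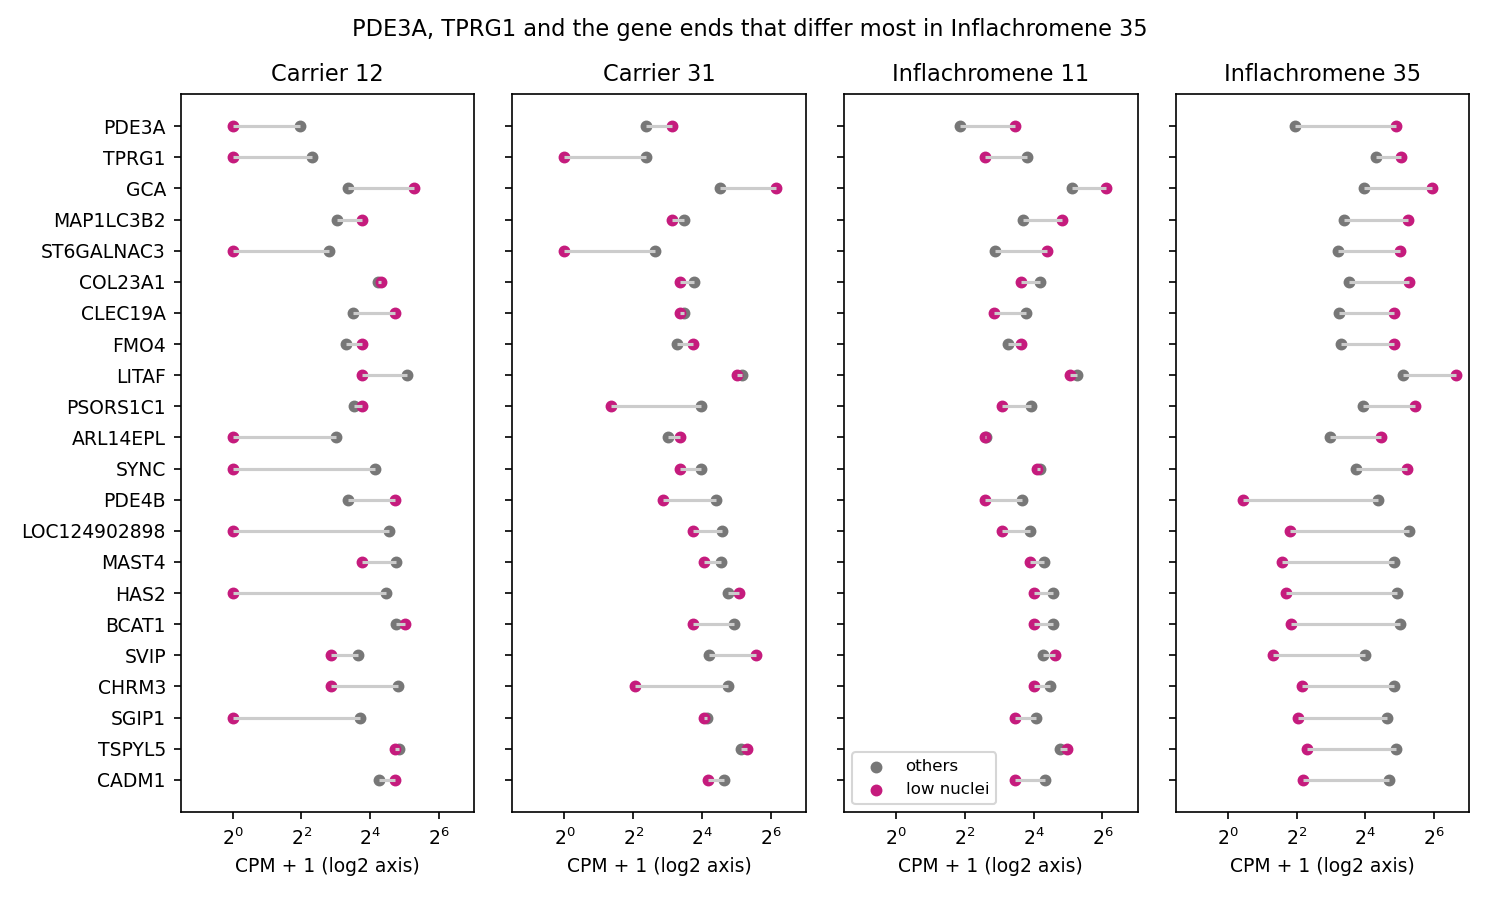
CPM plus 1 on a log2 axis (x axis) in low nuclei and in others, 1 panel per library, for PDE3A, TPRG1 and the 10 gene ends highest and 10 lowest in the low nuclei of Inflachromene 35 (y axis). In Inflachromene 35 PDE4B stands at 0.373 CPM in low nuclei against 19.6 in others, the other libraries are mixed in direction with points of Carrier 12 resting on few or 0 counts, and GCA is higher in all 4.

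The treatment contrast was tested within the low nuclei and as a difference of differences. No gene end among 11950 showed a difference between low nuclei and others that itself differed between Inflachromene and Carrier (0% by edgeR), with 535 at an unadjusted p under 0.05 and none by DESeq2. For PDE3A the unadjusted edgeR p of that difference was 0.0569 and for TPRG1 0.068. Within low nuclei alone, none of 10655 gene ends differed between Inflachromene and Carrier by edgeR (0%), with 472 at an unadjusted p under 0.05 and none by DESeq2. That count rests on which libraries enter. It was 11 without Carrier 12, 83 without Carrier 31, 11 without Inflachromene 11 and 0 without Inflachromene 35. The low nuclei of Carrier 12 and Carrier 31 summed to 158850 and 641266 counts outside chromosomes 7 and 15, beside 797117 and 8047732 in Inflachromene 11 and Inflachromene 35.

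The share of counts at gene ends gave no common direction. It was 52.3% in low nuclei against 47.5% in others in Carrier 12, 53.9% against 50.8% in Carrier 31, 51.7% against 52.2% in Inflachromene 11 and 45.9% against 47.985% in Inflachromene 35. The mean difference was 1.31 percentage points, with a two-sided exact sign-flip p of 0.5. Both Carrier libraries were above 0 and both Inflachromene libraries below it. The mean turned negative where Carrier libraries with under 10 low nuclei dropped out, as at -1.33 points over the Inflachromene libraries alone without barcodes of shared sequence.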

How the data were processed

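Nuclei were extracted by a 10x protocol and made into libraries with a single-cell ATAC kit, per the labels' protocols. The build was GRCh38 and the tools were Cell Ranger ARC and Cell Ranger ATAC 2.1.0, per the submitters' processing notes, which as used here carry no settings. The authors deposited, per library, peaks and a peak-by-barcode matrix of raw counts in whole numbers. Peaks were called per library, so several of a library's peaks were added up where they fell in 1 consensus region.

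The members, lists and comparisons were chosen with earlier results of these data known. Low nuclei and others were summed per library (8 sums) and tested with edgeR 4.0.16 (TMM, filterByExpr, quasi-likelihood F test, library as block because both classes come from the same mouse; R 4.3.3), leaving out chromosomes 7 and 15 and any library with under 10 low nuclei. DESeq2 1.42.0 was an alternative. Tests on simulated data with 11949 gene ends recovered 62% of log2 changes of 1 and 9% of changes of 0.5, with 3 unchanged gene ends called. Of 19970 protein-coding genes, 12962 had a gene end, 10643 of them at a start and 2319 at an outer end, and 3095 share a region with another gene. Clusters used latent semantic indexing (30 components, the first left out) and the Leiden method (leidenalg 0.10.2, resolution 0.5). No doublet caller was run. Per-library fold changes use CPM plus 1. Named gene ends were PDE3A, TPRG1, then up to 10 in each direction past the threshold with 1 sign in every library, by fold change, filled by the smallest unadjusted p, up to 4 members per list, and, away from gene ends, up to 4 regions higher and 4 lower. Gene ends with 1 sign in all 4 libraries were 14.9% of those tested. Each library is 1 mouse per the titles. With the library as a block, edgeR p-values rest on how the difference between classes varies between libraries, together with counting error. The contrast within low nuclei has no block and rests on the spread between mice.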

Additional observations from a re-analysis of the deposited data

Results flagged for a closer look

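In both Carrier libraries low nuclei had a larger share of counts at gene ends than others, and in both Inflachromene libraries a smaller one. The differences were 4.86, 3.02, -0.52 and -2.13 percentage points, so the Inflachromene mean minus the Carrier mean was -5.27 points. The difference was not tested. The Carrier libraries stayed above 0 and the Inflachromene libraries below it under the 5 other settings for which each library was measured. These settings use largely the same nuclei. Several Carrier values there rest on under 10 low nuclei, such as 7 and 6 at the limit of -0.3 and 1 in Carrier 12 at 20000 counts.

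Chromosome 21 stood at -0.13 and -0.06 (log2, low nuclei minus others) in the Carrier libraries and at 0.07 and 0.11 in the Inflachromene libraries, a difference of 0.19. This was not tested either, and 1 such split among 23 chromosomes was picked by its signs.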

How the results depend on the processing

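The means, over libraries with at least 10 low nuclei, of the deficit of chromosomes 7 and 15 in peaks outside the rule and of the difference in neighbours kept their direction under every alternative run, at -0.43 to -0.32, -0.58 to -0.49 and 5.45 to 47.5 points. The neighbour difference in single Carrier libraries was below 0 at 20000 counts (-0.54, Carrier 12), at the limit of -0.3 (-0.32 and -0.59) and without shared barcodes (-0.16, Carrier 12). The Inflachromene minus Carrier share of low nuclei ranged from 2.30 to 24.8 points. The mean difference in the share of counts at gene ends (1.31 points) reversed, with no library changing sign, where 1 or both Carrier libraries had under 10 low nuclei and dropped out: at 20000 counts per barcode (-0.13), at a limit of -0.3 (-1.35), at quartile depth (-0.014) and without shared barcodes (-1.33), and leaving out 1 library gave 0.12 to 2.45.

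Gene ends past the threshold (41) were 21 at 20000 counts, 13 at the limit of -0.3, 20 at quartile depth, 0 without shared barcodes, 371 when barcodes were counted, 0 against others low on 9p and high on 3p, and 2 with the window offset; leaving out 1 library gave 1 to 27. The library block pairs the classes; without the replicate block there were 94. Regions (50) were 9, 4, 97, 667, 1 and 1 at 20000 counts, quartile depth, without shared barcodes, with barcodes counted, against the 9p and 3p set and with the offset, 7 without the block, and 0 to 66 leaving out 1 library. Windows (10) were 6, 0, 6 and 0 at quartile depth, without shared barcodes, with barcodes counted and against the 9p and 3p set, 20 by DESeq2, and 5 to 29 leaving out 1 library. Gene ends within low nuclei (0) ranged from 0 to 83. Some settings left fewer libraries with 10 low nuclei. TPRG1 (-0.19) turned positive at the limit of -0.3 (0.50), quartile depth (0.22), without shared barcodes (0.30), barcodes counted (0.34), without the block (0.98), with the offset (0.072), and without Carrier 31 or Inflachromene 11, within a range of -1.93 to 0.13 over libraries left out. Against the 9p and 3p set, the windows at 180 Mb of chromosome 5 (0.083) and at the start of chromosomes 11 (-0.13) and 18 (0.0052) reversed. Causes were not tested.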
